A study of Mus musculus with 16 samples.

Results

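The genes described here are those that copy DNA in S phase, from the proteins that mark replication origins to the enzymes that make deoxynucleotides. They were taken by gene symbol: the origin recognition genes Orc1 to Orc6, Cdc6, Cdt1 and Gmnn, the Mcm genes 2 to 8 and 10, Cdc7 and Dbf4, Cdc45 and the Gins genes, DNA polymerases alpha, delta and epsilon with the primase genes, the Rfc and Rpa genes, Pcna, Fen1, Lig1, Top1, Rrm1, Rrm2, Tyms and Tk1. Of these 52 symbols, 51 were measured among the 16475 genes of the array table, and Pcna is not analysed here. The rule itself uses no measured value, but it was chosen with earlier results of these data known. No filter on low values was applied.

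The mice were female C57BL/6 carrying a GFP-Foxp3 knock-in reporter, and the CD4+ T cells of their spleens and lymph nodes were divided by GFP into TFoxp3+ cells, the regulatory subset, and TFoxp3− cells, the remaining CD4+ T cells. Both subsets were measured after 36 h of activation, in which human IL-2 (100 U/ml) was added and the plate was coated with CD3 and CD28 antibodies at 5 µg/ml, and directly ex vivo. From each, mRNA associated with at least 3 ribosomes (polysome-associated mRNA) and total cytosolic mRNA were hybridised to arrays, which gave 8 groups of 2 arrays. All groups carry the reporter and were described as biological duplicates, with RNA of 2 experiments pooled for each ex vivo sample. Cycloheximide, which holds ribosomes on mRNA, was used in all groups. For ex vivo cells it was present in every buffer and medium, and activated cells received it when the culture ended. This timing cannot be told apart from the state.

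Replication starts where the origin recognition complex sits on chromatin and, with Cdc6 and Cdt1, loads the ring-shaped MCM helicase in G1. Cdc7 with its partner Dbf4 and the cyclin-dependent kinases then let Cdc45 and the GINS complex join the ring, and the polymerases, clamp, clamp loader and single-strand binding protein assemble around it. Resting T cells keep many of these genes low, antigen receptor signalling with IL-2 brings the cells into the cycle, and transcription of many replication genes at that step is driven by E2F factors once the retinoblastoma proteins release them.

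The promoters of the members were read for E2F sites and for other motifs known from cell cycle promoters. RefSeq promoters on build GRCm38.p6, each running from 250 bases before to 50 after the gene start, were matched for 44 of the 52 symbols, 43 of them measured genes. The core TTNNCGC, searched on both strands, was present in 32 of the 44 (72.7%), against 5536 of all 27025 promoters of the same length (20.5%). The longer forms TTTGGCGC and TTTCCCGC, both of which contain the core, were present in 7 (15.9%) and 9 (20.5%) of the 44, against 0.537% and 1.11% of all promoters. CCAAT boxes were found in 54.5% of the 44 and 37.9% of all promoters, GC boxes (GGGCGG) in 75% and 35.9%, and the CHR letters TTTGAA in 13.6% and 18.1%. The promoters of 6 members are shown, with every match to the core or its reverse complement in capitals. Rrm2 (chr12:24708004-24708303, plus strand), Rrm1 (chr7:102441445-102441744, plus strand) and Cdc6 (chr11:98907901-98908200, plus strand) had the highest mean activation difference among members with a promoter, Orc5 (chr5:22550289-22550588, minus strand) and Rpa1 (chr11:75348334-75348633, minus strand) had the lowest, and Mcm6 (chr1:128359656-128359955, minus strand) held the most matches, 6.
Rrm2: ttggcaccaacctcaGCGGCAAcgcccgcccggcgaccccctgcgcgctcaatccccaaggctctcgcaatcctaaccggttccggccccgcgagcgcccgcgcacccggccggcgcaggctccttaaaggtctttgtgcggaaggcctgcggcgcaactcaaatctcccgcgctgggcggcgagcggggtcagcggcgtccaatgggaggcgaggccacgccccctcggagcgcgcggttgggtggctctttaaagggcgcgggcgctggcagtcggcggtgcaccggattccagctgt
Rrm1: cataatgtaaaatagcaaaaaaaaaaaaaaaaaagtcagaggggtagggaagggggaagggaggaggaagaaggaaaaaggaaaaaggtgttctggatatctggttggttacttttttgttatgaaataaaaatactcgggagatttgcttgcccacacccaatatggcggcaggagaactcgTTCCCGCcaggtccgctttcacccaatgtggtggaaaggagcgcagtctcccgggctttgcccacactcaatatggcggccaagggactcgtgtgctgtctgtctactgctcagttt
Cdc6: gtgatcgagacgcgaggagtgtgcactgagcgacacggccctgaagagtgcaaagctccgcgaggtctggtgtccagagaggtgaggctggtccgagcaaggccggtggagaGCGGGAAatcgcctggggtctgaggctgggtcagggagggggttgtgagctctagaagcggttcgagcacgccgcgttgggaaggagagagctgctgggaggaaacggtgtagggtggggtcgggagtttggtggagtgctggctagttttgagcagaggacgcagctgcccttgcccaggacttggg
Mcm6: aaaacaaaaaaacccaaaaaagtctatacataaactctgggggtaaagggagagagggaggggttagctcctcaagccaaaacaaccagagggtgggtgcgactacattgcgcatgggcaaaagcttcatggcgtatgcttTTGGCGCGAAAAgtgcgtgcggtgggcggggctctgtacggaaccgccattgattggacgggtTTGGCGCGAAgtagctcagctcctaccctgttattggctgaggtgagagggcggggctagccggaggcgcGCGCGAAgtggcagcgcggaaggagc
Orc5: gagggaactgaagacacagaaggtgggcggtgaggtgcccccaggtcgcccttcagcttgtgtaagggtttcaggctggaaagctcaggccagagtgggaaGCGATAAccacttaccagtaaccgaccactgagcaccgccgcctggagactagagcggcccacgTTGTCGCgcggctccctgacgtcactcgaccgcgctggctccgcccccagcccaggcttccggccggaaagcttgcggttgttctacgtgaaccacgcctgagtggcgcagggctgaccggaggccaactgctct
Rpa1: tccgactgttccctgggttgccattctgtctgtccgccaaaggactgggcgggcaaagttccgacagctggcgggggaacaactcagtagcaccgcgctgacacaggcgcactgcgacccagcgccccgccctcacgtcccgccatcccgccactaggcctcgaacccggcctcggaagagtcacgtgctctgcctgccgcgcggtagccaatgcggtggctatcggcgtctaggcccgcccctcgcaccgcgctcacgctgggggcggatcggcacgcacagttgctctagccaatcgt
The Rpa1 window held no match, and the Orc5 window held 2. With the first base of the gene counted as 0, the matches in Mcm6 began at -109, -106, -104, -46, -43 and 24, several of them overlapping. The match in Rrm1 began at -67, that in Cdc6 at -138 and that in Rrm2 at -235. A match is a run of letters and was not tested for binding.

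Values are log2 intensities, and differences are on the same scale. The labelled subsets carried their defining transcript: Foxp3 read 9.42 to 10.76 on the 4 arrays of activated TFoxp3+ cells and 5.26 to 6.85 in activated TFoxp3− cells, and ex vivo it read 10.29 to 10.65 in TFoxp3+ cells and 3.74 to 4.74 in TFoxp3− cells. The arrays lie in 3 series by the names of the arrays, with all ex vivo arrays in 1, activated TFoxp3+ arrays in another and activated TFoxp3− arrays in the last, so that activation, and the subset in activated cells, cannot be told apart from the array series, while both RNA fractions of a group lie within a series. Array medians over all genes were 4.84 to 5.06. The arrays of a pair correlated at 0.887 to 0.888 in activated TFoxp3+ cells, 0.941 to 0.945 in activated TFoxp3− cells and 0.980 to 0.992 ex vivo, across genes. In these bulk samples fewer cells of a type and less RNA per cell cannot be told apart.

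The level of the members was higher in activated cells. The median member stood at percentile 78.0 to 89.0 of all genes on the 4 arrays of activated TFoxp3+ cells and at percentile 84.6 to 91.2 on those of activated TFoxp3− cells. Ex vivo it stood at percentile 62.9 to 71.0 in TFoxp3+ cells and 64.6 to 66.5 in TFoxp3− cells, so no ex vivo array reached an activated one. Of the 51 members, 42 to 44 were above the array median in activated TFoxp3+ cells and 47 to 51 in activated TFoxp3− cells, against 34 to 41 and 37 to 41 in the same subsets ex vivo.

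**Figure D1:**
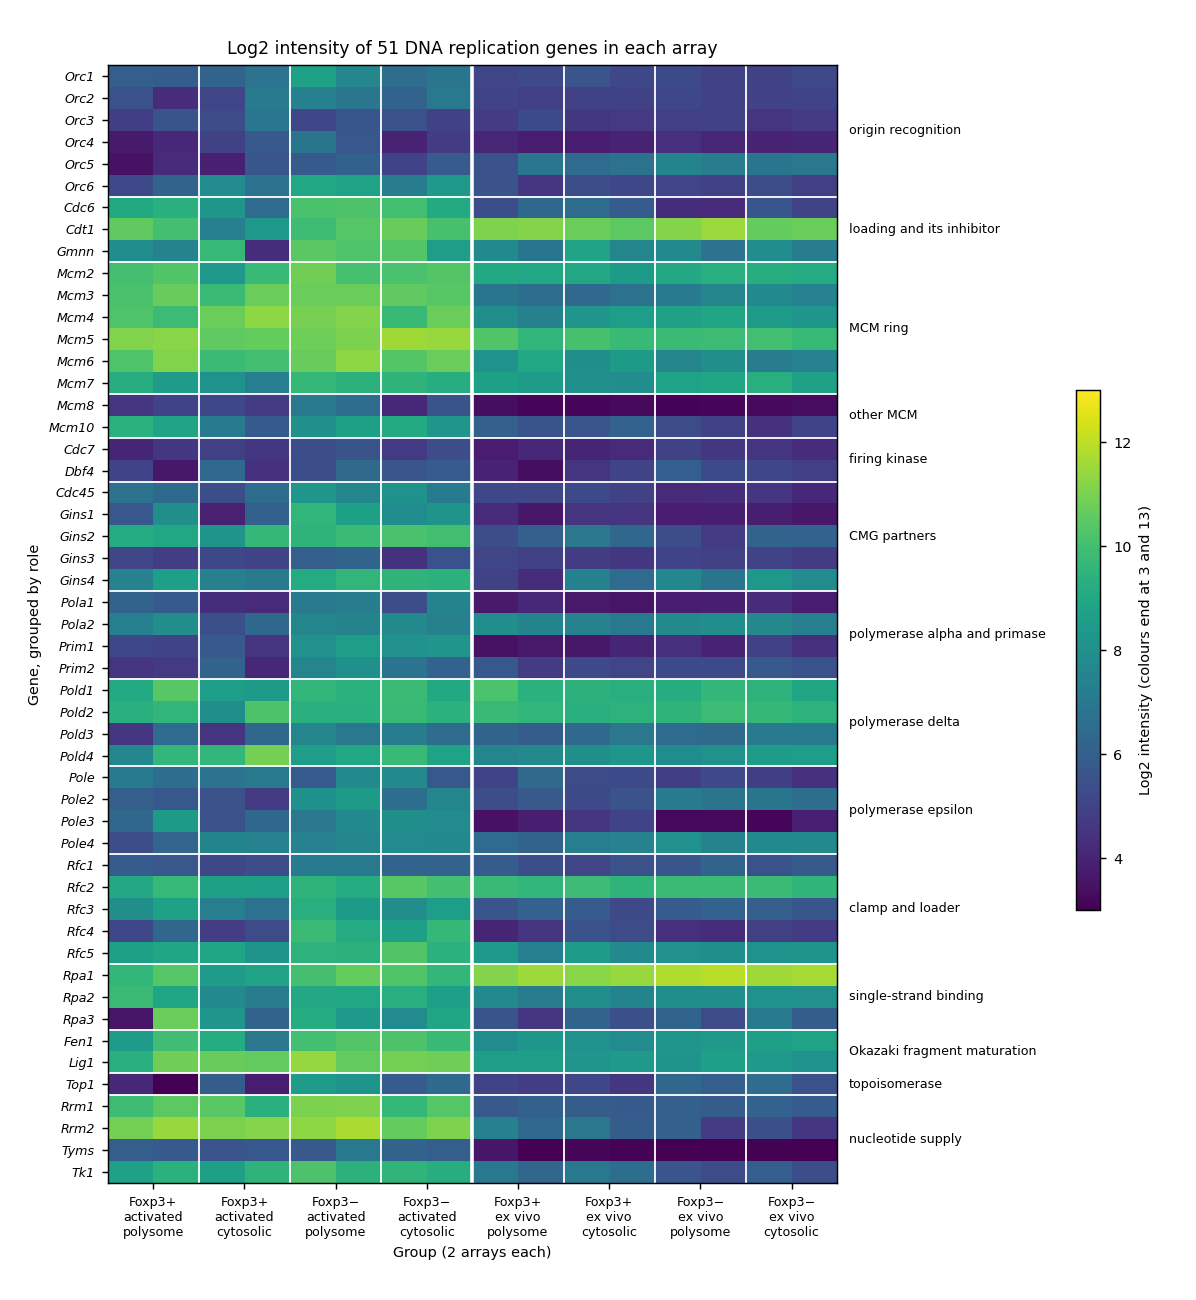
Log2 intensity of the 51 measured replication genes (rows, grouped by role) on the 16 arrays (columns, 2 for each group). Colours compare arrays within a row, since probe sets of different genes are not on 1 scale. Most rows are brighter in the 8 activated arrays on the left, and Rpa1, Cdt1 and Orc5 are rows that are not.

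Activation was examined first, within each subset and fraction. In activated TFoxp3+ cells 22 of 51 members were higher in polysome-associated mRNA than ex vivo and 2 lower (limma over all 16 arrays, p adjusted by Benjamini-Hochberg over all 16475 genes, called under 0.05). That is 43.1% and 3.92% of the members, against 14.7% and 14.6% of all genes. In their cytosolic mRNA 17 members (33.3%) were higher and 5 (9.8%) lower, against 16.9% and 14.4% of all genes. In activated TFoxp3− cells 34 members (66.7%) were higher in polysome-associated mRNA and 2 (3.92%) lower, against 14.1% and 16.4% of all genes. Their cytosolic mRNA had 25 members (49%) higher and 1 (1.96%) lower, against 13.6% and 12.5%. The median member differed by 1.09 and 0.64 on the log2 scale in TFoxp3+ polysome-associated and cytosolic mRNA and by 2.10 and 1.61 in those of TFoxp3− cells, while the median gene differed by 0.09 to 0.13 in TFoxp3+ cells and 0.02 to 0.11 in TFoxp3− cells. Among the members 12 were called higher in all 4 comparisons (Gins2, Lig1, Mcm3, Mcm4, Mcm6, Mcm8, Prim1, Rfc3, Rrm1, Rrm2, Tk1 and Tyms), and 14 in none. The 31 measured members with an E2F core in the promoter had a median difference of 1.23 in TFoxp3+ and 2.86 in TFoxp3− polysome-associated mRNA, and the 12 without had 0.83 and 1.96. In cytosolic mRNA the members with a core had medians of 0.69 in TFoxp3+ and 1.68 in TFoxp3− cells, and those without had 0.63 and 0.90. These medians are a description with no test. In TFoxp3+ cells both activated arrays lay above both ex vivo arrays for 27 (polysome) and 26 (cytosolic) members. Of all genes this held for 35.6% and 38.3%. In TFoxp3− cells it held for 42 and 39 members, and for 36.3% and 39.5% of all genes. The reverse held for 5, 7, 6 and 2 members in the same order, and for 29.5% to 35.4% of all genes. Separation of arrays in members picked from these same arrays is not added support.

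**Figure D2:**
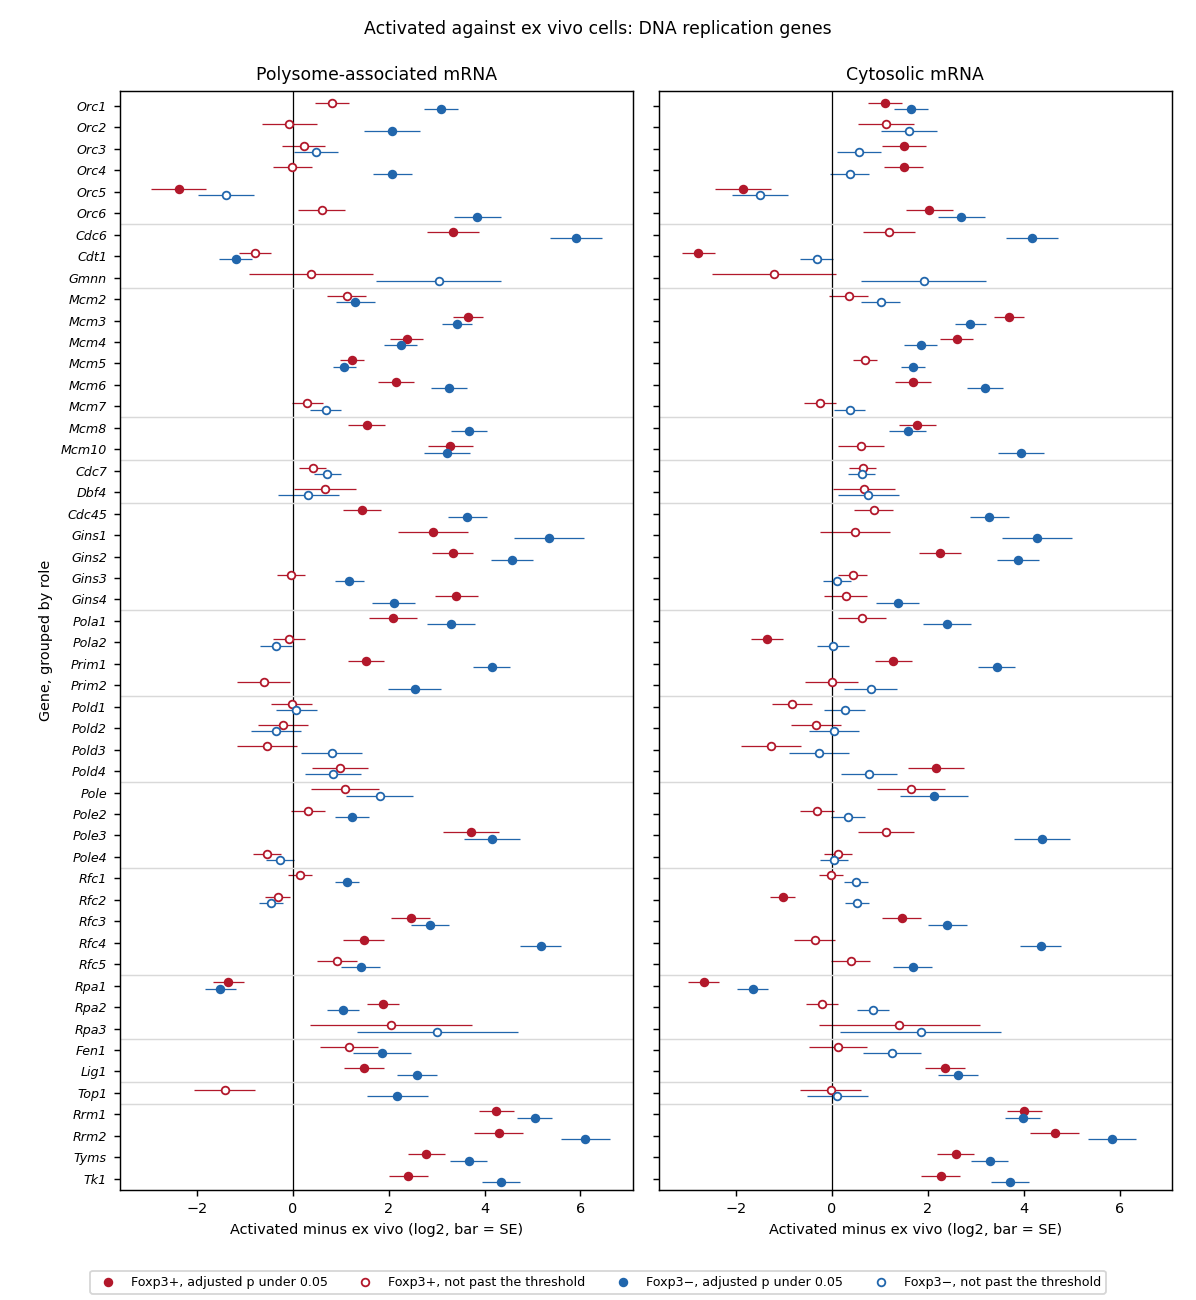
Activated minus ex vivo difference of each member on the log2 scale, with its standard error as a bar, in polysome-associated (left) and cytosolic mRNA (right) of TFoxp3+ (red) and TFoxp3− cells (blue). Filled points passed an adjusted p under 0.05. Nucleotide supply genes at the bottom lie to the right of 2 in all 4 comparisons, and Rpa1 lies left of 0 in all 4.

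Genes that supply nucleotides rose in every activation comparison. Rrm1 and Rrm2 encode the large and small subunits of ribonucleotide reductase, which makes deoxynucleotides, Tyms makes the thymidine nucleotide, and Tk1 salvages thymidine. In activated cells Rrm2 read 10.90 and 11.45 in TFoxp3+ polysome-associated mRNA, 11.03 and 11.19 in TFoxp3+ cytosolic mRNA, 11.30 and 11.74 in TFoxp3− polysome-associated mRNA and 10.63 and 11.07 in TFoxp3− cytosolic mRNA. Ex vivo the Rrm2 values were 7.34 and 6.42 in TFoxp3+ polysome-associated mRNA, 7.0 and 5.93 in TFoxp3+ cytosolic mRNA, 6.07 and 4.77 in TFoxp3− polysome-associated mRNA and 5.43 and 4.60 in TFoxp3− cytosolic mRNA. The activated and ex vivo arrays did not overlap, and the differences were 4.30 (SE 0.51, adjusted p = 0.000182) and 4.64 (SE 0.51, adjusted p = 0.000115) in TFoxp3+ polysome-associated and cytosolic mRNA and 6.10 (SE 0.51, adjusted p = 1.13e-05) and 5.84 (SE 0.51, adjusted p = 3e-05) in those of TFoxp3− cells. In activated cells Rrm1 read 9.85 and 10.48 in TFoxp3+ polysome-associated mRNA, 10.45 and 9.34 in TFoxp3+ cytosolic mRNA, 11.04 and 11.06 in TFoxp3− polysome-associated mRNA and 9.64 and 10.38 in TFoxp3− cytosolic mRNA. Ex vivo the Rrm1 values were 5.79 and 6.05 in TFoxp3+ polysome-associated mRNA, 5.94 and 5.82 in TFoxp3+ cytosolic mRNA, 6.07 and 5.94 in TFoxp3− polysome-associated mRNA and 6.15 and 5.92 in TFoxp3− cytosolic mRNA. Rrm1 again separated activated from ex vivo arrays without overlap, by 4.25 (SE 0.36, adjusted p = 2.71e-05) and 4.01 (SE 0.36, adjusted p = 3.77e-05) in TFoxp3+ and 5.04 (SE 0.36, adjusted p = 5.12e-06) and 3.98 (SE 0.36, adjusted p = 3.76e-05) in TFoxp3− cells. In activated cells Tk1 read 8.73 and 9.39 in TFoxp3+ polysome-associated mRNA, 8.67 and 9.51 in TFoxp3+ cytosolic mRNA, 10.19 and 9.44 in TFoxp3− polysome-associated mRNA and 9.55 and 9.25 in TFoxp3− cytosolic mRNA. Ex vivo the Tk1 values were 7.01 and 6.30 in TFoxp3+ polysome-associated mRNA, 7.03 and 6.62 in TFoxp3+ cytosolic mRNA, 5.64 and 5.30 in TFoxp3− polysome-associated mRNA and 5.99 and 5.39 in TFoxp3− cytosolic mRNA. All 8 activated Tk1 values were above all 8 ex vivo values, with differences of 2.41 and 2.27 in TFoxp3+ and 4.35 and 3.71 in TFoxp3− polysome-associated and cytosolic mRNA. Tyms differed by 2.78, 2.58, 3.66 and 3.29 in the same order, and all 8 of its ex vivo values (2.57 to 3.62) lay below the median of their arrays.

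Of the 6 genes of the MCM ring, the helicase that unwinds DNA, 4 rose in TFoxp3+ polysome-associated mRNA and 3 in TFoxp3+ cytosolic mRNA, and 5 and 4 rose in those of TFoxp3− cells. In activated cells Mcm3 read 10.14 and 10.67 in TFoxp3+ polysome-associated mRNA, 9.81 and 10.73 in TFoxp3+ cytosolic mRNA, 10.77 and 10.75 in TFoxp3− polysome-associated mRNA and 10.57 and 10.39 in TFoxp3− cytosolic mRNA. Ex vivo the Mcm3 values were 6.88 and 6.62 in TFoxp3+ polysome-associated mRNA, 6.40 and 6.74 in TFoxp3+ cytosolic mRNA, 7.13 and 7.54 in TFoxp3− polysome-associated mRNA and 7.76 and 7.43 in TFoxp3− cytosolic mRNA. No activated Mcm3 value overlapped an ex vivo one, and its differences were 3.65 (SE 0.32, adjusted p = 2.97e-05) and 3.69 (SE 0.32, adjusted p = 2.81e-05) in TFoxp3+ and 3.42 (SE 0.32, adjusted p = 2.24e-05) and 2.89 (SE 0.32, adjusted p = 0.000112) in TFoxp3− polysome-associated and cytosolic mRNA. In activated cells Mcm5 read 11.10 and 11.23 in TFoxp3+ polysome-associated mRNA, 10.56 and 10.64 in TFoxp3+ cytosolic mRNA, 10.79 and 11.03 in TFoxp3− polysome-associated mRNA and 11.57 and 11.47 in TFoxp3− cytosolic mRNA. Ex vivo the Mcm5 values were 10.28 and 9.59 in TFoxp3+ polysome-associated mRNA, 10.10 and 9.72 in TFoxp3+ cytosolic mRNA, 9.83 and 9.85 in TFoxp3− polysome-associated mRNA and 9.95 and 9.70 in TFoxp3− cytosolic mRNA. Mcm5 rose by 1.23 (SE 0.25, adjusted p = 0.00395) in TFoxp3+ polysomes and by 1.08 (SE 0.25, adjusted p = 0.00685) and 1.69 (SE 0.25, adjusted p = 0.000639) in TFoxp3− polysome-associated and cytosolic mRNA, and in TFoxp3+ cytosolic mRNA its difference of 0.69 (SE 0.25, adjusted p = 0.0539) did not pass the threshold. Mcm7 passed it in none of the 4 comparisons, with differences of -0.25 to 0.68. Outside the ring, Mcm8, known for homologous recombination, rose by 1.54 and 1.78 in TFoxp3+ and 3.67 and 1.58 in TFoxp3− polysome-associated and cytosolic mRNA. Every ex vivo Mcm8 value (3.10 to 3.36) lay below the median of its array. Mcm10, which helps switch the loaded helicase on, rose by 3.29 in TFoxp3+ polysomes and by 3.21 and 3.95 in TFoxp3− cells, and its TFoxp3+ cytosolic difference was 0.60 (SE 0.47, adjusted p = 0.358).

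Genes that set up origins did not move as 1 group. Orc1 to Orc6 encode the origin recognition complex. In TFoxp3+ cells none of the 6 rose in polysome-associated mRNA and 4 rose in cytosolic mRNA (Orc1, Orc3, Orc4 and Orc6), while in TFoxp3− cells 4 rose in polysome-associated mRNA (Orc1, Orc2, Orc4 and Orc6) and 2 in cytosolic mRNA (Orc1 and Orc6). In activated cells Orc5 read 3.47 and 4.19 in TFoxp3+ polysome-associated mRNA, 3.87 and 5.67 in TFoxp3+ cytosolic mRNA, 5.84 and 6.12 in TFoxp3− polysome-associated mRNA and 5.01 and 5.85 in TFoxp3− cytosolic mRNA. Ex vivo the Orc5 values were 5.51 and 6.91 in TFoxp3+ polysome-associated mRNA, 6.48 and 6.76 in TFoxp3+ cytosolic mRNA, 7.51 and 7.24 in TFoxp3− polysome-associated mRNA and 6.87 and 7.0 in TFoxp3− cytosolic mRNA. In each fraction of each subset both activated Orc5 arrays were below both ex vivo arrays. In a single comparison the same held for 29.5% to 35.4% of all genes. Orc5 fell in TFoxp3+ polysome-associated and cytosolic mRNA with differences of -2.38 (SE 0.58, adjusted p = 0.0107) and -1.85 (SE 0.58, adjusted p = 0.0318), and its TFoxp3− differences were -1.39 (SE 0.58, adjusted p = 0.0929) and -1.5 (SE 0.58, adjusted p = 0.0792). In activated cells Cdc6 read 9.08 and 9.36 in TFoxp3+ polysome-associated mRNA, 8.31 and 6.5 in TFoxp3+ cytosolic mRNA, 10.12 and 10.20 in TFoxp3− polysome-associated mRNA and 9.97 and 9.11 in TFoxp3− cytosolic mRNA. Ex vivo the Cdc6 values were 5.40 and 6.36 in TFoxp3+ polysome-associated mRNA, 6.52 and 5.91 in TFoxp3+ cytosolic mRNA, 4.29 and 4.22 in TFoxp3− polysome-associated mRNA and 5.69 and 5.04 in TFoxp3− cytosolic mRNA. Cdc6, which helps load the helicase, rose by 3.34 (SE 0.54, adjusted p = 0.00117) in TFoxp3+ polysomes and by 5.91 (SE 0.54, adjusted p = 2.09e-05) and 4.17 (SE 0.54, adjusted p = 0.000302) in TFoxp3− polysome-associated and cytosolic mRNA, while in TFoxp3+ cytosolic mRNA, where the arrays of the 2 states overlapped, it gave 1.19 (SE 0.54, adjusted p = 0.119). In activated cells Cdt1 read 10.57 and 10.03 in TFoxp3+ polysome-associated mRNA, 7.34 and 8.32 in TFoxp3+ cytosolic mRNA, 9.91 and 10.35 in TFoxp3− polysome-associated mRNA and 10.67 and 10.11 in TFoxp3− cytosolic mRNA. Ex vivo the Cdt1 values were 11.05 and 11.13 in TFoxp3+ polysome-associated mRNA, 10.74 and 10.49 in TFoxp3+ cytosolic mRNA, 11.16 and 11.50 in TFoxp3− polysome-associated mRNA and 10.64 and 10.77 in TFoxp3− cytosolic mRNA. Cdt1, the partner of Cdc6 in loading, was bright ex vivo in both subsets and fell in TFoxp3+ cytosolic mRNA, with a difference of -2.79 (SE 0.34, adjusted p = 0.000227), and in TFoxp3− polysome-associated mRNA, with a difference of -1.20 (SE 0.34, adjusted p = 0.021). Gmnn, which encodes the Cdt1 inhibitor geminin, read 9.71 and 4.30 on the 2 activated TFoxp3+ cytosolic arrays, a spread wider than its differences, and passed the threshold in no comparison.

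The kinase genes Cdc7 and Dbf4 passed the threshold in no activation comparison. In activated cells Dbf4 read 5.02 and 3.65 in TFoxp3+ polysome-associated mRNA, 6.43 and 4.42 in TFoxp3+ cytosolic mRNA, 5.40 and 6.48 in TFoxp3− polysome-associated mRNA and 5.64 and 5.88 in TFoxp3− cytosolic mRNA. Ex vivo the Dbf4 values were 3.95 and 3.37 in TFoxp3+ polysome-associated mRNA, 4.49 and 5.03 in TFoxp3+ cytosolic mRNA, 5.97 and 5.25 in TFoxp3− polysome-associated mRNA and 5.12 and 4.88 in TFoxp3− cytosolic mRNA. The Dbf4 values of activated and ex vivo arrays overlapped in all but TFoxp3− cytosolic mRNA, and the differences were 0.32 to 0.76 with an SE of 0.64. Cdc45 and the 4 GINS genes, whose products complete the active helicase, rose in 4 of 5 cases in TFoxp3+ polysome-associated mRNA and 1 of 5 in TFoxp3+ cytosolic mRNA, and in 5 and 4 of 5 in those of TFoxp3− cells. In activated cells Gins2 read 9.16 and 8.98 in TFoxp3+ polysome-associated mRNA, 8.16 and 9.67 in TFoxp3+ cytosolic mRNA, 9.49 and 9.82 in TFoxp3− polysome-associated mRNA and 10.13 and 9.98 in TFoxp3− cytosolic mRNA. Ex vivo the Gins2 values were 5.41 and 6.07 in TFoxp3+ polysome-associated mRNA, 6.96 and 6.36 in TFoxp3+ cytosolic mRNA, 5.37 and 4.80 in TFoxp3− polysome-associated mRNA and 6.20 and 6.15 in TFoxp3− cytosolic mRNA. All Gins2 values of activated cells were above all ex vivo values, by 3.33 (SE 0.43, adjusted p = 0.000329) and 2.26 (SE 0.43, adjusted p = 0.00304) in TFoxp3+ and 4.57 (SE 0.43, adjusted p = 2.66e-05) and 3.88 (SE 0.43, adjusted p = 0.000125) in TFoxp3− polysome-associated and cytosolic mRNA.

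Calls among the polymerase genes differed by enzyme. Of the polymerase alpha and primase genes, which lay down primers, Pola1 and Prim1 rose in TFoxp3+ polysomes, Prim1 in TFoxp3+ cytosolic mRNA, Pola1, Prim1 and Prim2 in TFoxp3− polysomes, and Pola1 and Prim1 in TFoxp3− cytosolic mRNA. In activated cells Pola2 read 7.30 and 7.94 in TFoxp3+ polysome-associated mRNA, 5.44 and 6.32 in TFoxp3+ cytosolic mRNA, 7.56 and 7.47 in TFoxp3− polysome-associated mRNA and 7.71 and 7.36 in TFoxp3− cytosolic mRNA. Ex vivo the Pola2 values were 7.90 and 7.51 in TFoxp3+ polysome-associated mRNA, 7.44 and 7.05 in TFoxp3+ cytosolic mRNA, 7.74 and 8.0 in TFoxp3− polysome-associated mRNA and 7.71 and 7.30 in TFoxp3− cytosolic mRNA. Pola2, the regulatory subunit of polymerase alpha, fell in TFoxp3+ cytosolic mRNA with a difference of -1.36 (SE 0.33, adjusted p = 0.0106), and its other 3 differences were -0.09 in TFoxp3+ polysomes and -0.35 and 0.03 in TFoxp3− polysome-associated and cytosolic mRNA. Of the 4 genes of polymerase delta, which extends the lagging strand, Pold4 rose in TFoxp3+ cytosolic mRNA by 2.17 (SE 0.58, adjusted p = 0.017), and no other call was made. In activated cells Pold2 read 9.35 and 9.59 in TFoxp3+ polysome-associated mRNA, 7.97 and 10.20 in TFoxp3+ cytosolic mRNA, 9.33 and 9.33 in TFoxp3− polysome-associated mRNA and 9.79 and 9.41 in TFoxp3− cytosolic mRNA. Ex vivo the Pold2 values were 9.76 and 9.58 in TFoxp3+ polysome-associated mRNA, 9.36 and 9.48 in TFoxp3+ cytosolic mRNA, 9.52 and 9.84 in TFoxp3− polysome-associated mRNA and 9.64 and 9.46 in TFoxp3− cytosolic mRNA. The Pold2 arrays of the 2 states overlapped in all but TFoxp3− polysomes, and its differences were -0.20 and -0.34 in TFoxp3+ and -0.35 and 0.05 in TFoxp3− cells. Of the polymerase epsilon genes, which serve the leading strand, Pole3 rose by 3.72 (SE 0.59, adjusted p = 0.001) in TFoxp3+ polysomes and by 4.15 (SE 0.59, adjusted p = 0.000347) and 4.37 (SE 0.59, adjusted p = 0.000376) in TFoxp3− polysome-associated and cytosolic mRNA.

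At the fork, the Rfc genes encode the loader of the PCNA clamp. Rfc3 rose in all 4 comparisons, and Rfc4 in all but TFoxp3+ cytosolic mRNA. In activated cells Rfc4 read 5.15 and 6.35 in TFoxp3+ polysome-associated mRNA, 4.82 and 5.33 in TFoxp3+ cytosolic mRNA, 9.82 and 9.15 in TFoxp3− polysome-associated mRNA and 8.69 and 9.66 in TFoxp3− cytosolic mRNA. Ex vivo the Rfc4 values were 4.04 and 4.51 in TFoxp3+ polysome-associated mRNA, 5.56 and 5.31 in TFoxp3+ cytosolic mRNA, 4.35 and 4.28 in TFoxp3− polysome-associated mRNA and 4.89 and 4.74 in TFoxp3− cytosolic mRNA. In TFoxp3− cells Rfc4 rose by 5.17 (SE 0.43, adjusted p = 1.07e-05) in polysome-associated and 4.36 (SE 0.43, adjusted p = 5.64e-05) in cytosolic mRNA, and in TFoxp3+ cells it rose by 1.48 (SE 0.43, adjusted p = 0.024) in polysome-associated mRNA and gave -0.36 (SE 0.43, adjusted p = 0.554) in cytosolic mRNA. In activated cells Rfc2 read 9.05 and 9.68 in TFoxp3+ polysome-associated mRNA, 8.67 and 8.65 in TFoxp3+ cytosolic mRNA, 9.50 and 9.2 in TFoxp3− polysome-associated mRNA and 10.39 and 9.99 in TFoxp3− cytosolic mRNA. Ex vivo the Rfc2 values were 9.78 and 9.59 in TFoxp3+ polysome-associated mRNA, 9.87 and 9.50 in TFoxp3+ cytosolic mRNA, 9.80 and 9.81 in TFoxp3− polysome-associated mRNA and 9.80 and 9.54 in TFoxp3− cytosolic mRNA. Rfc2 fell in TFoxp3+ cytosolic mRNA, with a difference of -1.03 (SE 0.26, adjusted p = 0.0123), where the activated and ex vivo arrays did not overlap, and passed the threshold in no other activation comparison.

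Rpa1, the large subunit of the protein that coats single-stranded DNA, was the 1 member that fell in all 4 comparisons. In activated cells Rpa1 read 9.61 and 10.38 in TFoxp3+ polysome-associated mRNA, 8.52 and 8.83 in TFoxp3+ cytosolic mRNA, 10.07 and 10.64 in TFoxp3− polysome-associated mRNA and 10.27 and 9.63 in TFoxp3− cytosolic mRNA. Ex vivo the Rpa1 values were 11.13 and 11.55 in TFoxp3+ polysome-associated mRNA, 11.24 and 11.46 in TFoxp3+ cytosolic mRNA, 11.80 and 11.93 in TFoxp3− polysome-associated mRNA and 11.58 and 11.63 in TFoxp3− cytosolic mRNA. Every activated Rpa1 value was below every ex vivo value, with differences of -1.35 (SE 0.32, adjusted p = 0.00986) and -2.68 (SE 0.32, adjusted p = 0.000201) in TFoxp3+ and -1.51 (SE 0.32, adjusted p = 0.00443) and -1.65 (SE 0.32, adjusted p = 0.00356) in TFoxp3− polysome-associated and cytosolic mRNA. The middle subunit gene Rpa2 rose in both polysome comparisons, by 1.89 (SE 0.33, adjusted p = 0.00192) in TFoxp3+ and 1.04 (SE 0.33, adjusted p = 0.0354) in TFoxp3− cells. The small subunit gene Rpa3 read 3.57 and 10.71 on the 2 activated TFoxp3+ polysome arrays, and its differences had an SE of 1.68 and did not pass. In activated cells Lig1 read 9.34 and 10.84 in TFoxp3+ polysome-associated mRNA, 10.69 and 10.61 in TFoxp3+ cytosolic mRNA, 11.40 and 10.58 in TFoxp3− polysome-associated mRNA and 10.93 and 10.83 in TFoxp3− cytosolic mRNA. Ex vivo the Lig1 values were 8.57 and 8.62 in TFoxp3+ polysome-associated mRNA, 8.22 and 8.35 in TFoxp3+ cytosolic mRNA, 8.16 and 8.65 in TFoxp3− polysome-associated mRNA and 8.36 and 8.15 in TFoxp3− cytosolic mRNA. Lig1, the ligase that joins lagging-strand fragments, did not overlap between states and rose by 1.49 (SE 0.42, adjusted p = 0.0208) and 2.36 (SE 0.42, adjusted p = 0.00192) in TFoxp3+ and 2.58 (SE 0.42, adjusted p = 0.000817) and 2.62 (SE 0.42, adjusted p = 0.0011) in TFoxp3− polysome-associated and cytosolic mRNA. Fen1, which trims the same fragments, and Top1, which relieves twisting ahead of the fork, rose in TFoxp3− polysomes, by 1.86 (SE 0.61, adjusted p = 0.0387) and 2.18 (SE 0.63, adjusted p = 0.0224).

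Other genes of the pathway were counted in the same way. Of 57 measured regulators and accessory factors of replication, 21 (36.8%) rose and 2 (3.51%) fell in TFoxp3+ polysome-associated mRNA, against 14.7% and 14.6% of all genes. In TFoxp3+ cytosolic mRNA 14 (24.6%) rose and 5 (8.77%) fell, against 16.9% and 14.4%. In TFoxp3− polysome-associated mRNA 31 (54.4%) rose and 2 (3.51%) fell, against 14.1% and 16.4%. In TFoxp3− cytosolic mRNA 25 (43.9%) rose and 3 (5.26%) fell, against 13.6% and 12.5%. Tfdp1, the dimerisation partner of E2F factors, rose by 5.40 and 6.17 in TFoxp3+ and 5.51 and 5.77 in TFoxp3− polysome-associated and cytosolic mRNA. In cytosolic mRNA E2f1 rose by 1.5 in TFoxp3+ and 2.30 in TFoxp3− cells, and Rb1, which restrains E2F, fell by 2.99 in TFoxp3+ cells. The E2f1 difference was smaller in polysomes than in cytosolic mRNA, by the change of its fraction difference between the states. That change was -0.87 (limma, adjusted p = 0.253) in TFoxp3+ and -1.77 (limma, adjusted p = 0.0525) in TFoxp3− cells, and neither passed the threshold. An RNA measure and several marker lists moved with the state. The 3′ minus 5′ difference of the actin control was -0.59 to -0.26 on activated TFoxp3+ and -0.36 to -0.20 on activated TFoxp3− arrays, against 4.16 to 4.64 ex vivo in TFoxp3+ and 0.82 to 1.38 ex vivo in TFoxp3− cells. The mean of 5 measured B cell markers of 7 was 4.41 to 4.79 and 3.71 to 4.45 on activated TFoxp3+ and TFoxp3− arrays, against 4.96 to 5.22 and 5.32 to 5.75 ex vivo. Stromal and endothelial markers (5 measured) averaged 4.52 to 5.19 on activated TFoxp3+ arrays, against 3.83 to 4.0 ex vivo, and NK markers (3 measured) 3.60 to 3.76, against 3.36 to 3.44, while both lists overlapped between the states in TFoxp3− cells. Myeloid markers (5 measured) averaged 3.63 to 4.23 on activated TFoxp3− arrays, against 4.34 to 4.66 ex vivo, and overlapped in TFoxp3+ cells. The mean of 4 regulatory T cell markers was 9.85 to 10.7 on activated TFoxp3+ and 6.09 to 6.86 on activated TFoxp3− arrays, against 7.94 to 8.48 and 4.17 to 4.47 ex vivo, and that of 5 T cell markers separated the states in TFoxp3+ cells, at 10.23 to 10.99 activated and 9.54 to 9.94 ex vivo. The part of these measures in the activation differences was not tested. In a fit of only the 4 arrays compared, 13 members were called in TFoxp3+ cytosolic mRNA in place of 22, and 13 and 14 without the first or the second ex vivo array of that comparison.

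The subsets were compared next within each state. In activated cells nearly all members that passed the test were lower in TFoxp3+ than in TFoxp3− cells. In polysome-associated mRNA 22 of 51 were lower and 0 higher (limma, adjusted p under 0.15), 43.1% and 0%, against 13.7% and 18.7% of all genes. In cytosolic mRNA 24 (47.1%) were lower and 1 (1.96%) higher, against 12.2% and 13.8% of all genes. The median member differed by -0.93 in polysome-associated and -1.14 in cytosolic mRNA, where the median gene differed by 0.20 and 0.13. Both TFoxp3+ arrays lay below both TFoxp3− arrays for 31 (polysome) and 29 (cytosolic) members, and for 19.8% of all genes in each fraction. The reverse held for 3 and 2 members, and for 35.9% and 30.1% of all genes. Such separation in members picked from these arrays is not added support. Lower in both fractions were 8 members (Cdc45, Gins1, Gins4, Pole2, Prim1, Prim2, Rfc1 and Rfc4), 13 were lower in polysomes with no call in cytosolic mRNA, 16 were lower in cytosolic mRNA with no call in polysomes, 13 passed in neither, and Orc4 was lower in polysomes and higher in cytosolic mRNA. Nucleotide supply, which rose with activation in both subsets, passed in polysomes for Rrm1 alone, at -0.88 (SE 0.36, adjusted p = 0.12), and in cytosolic mRNA its 4 genes differed by -0.42 to 0.26 with no call.

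**Figure D3:**
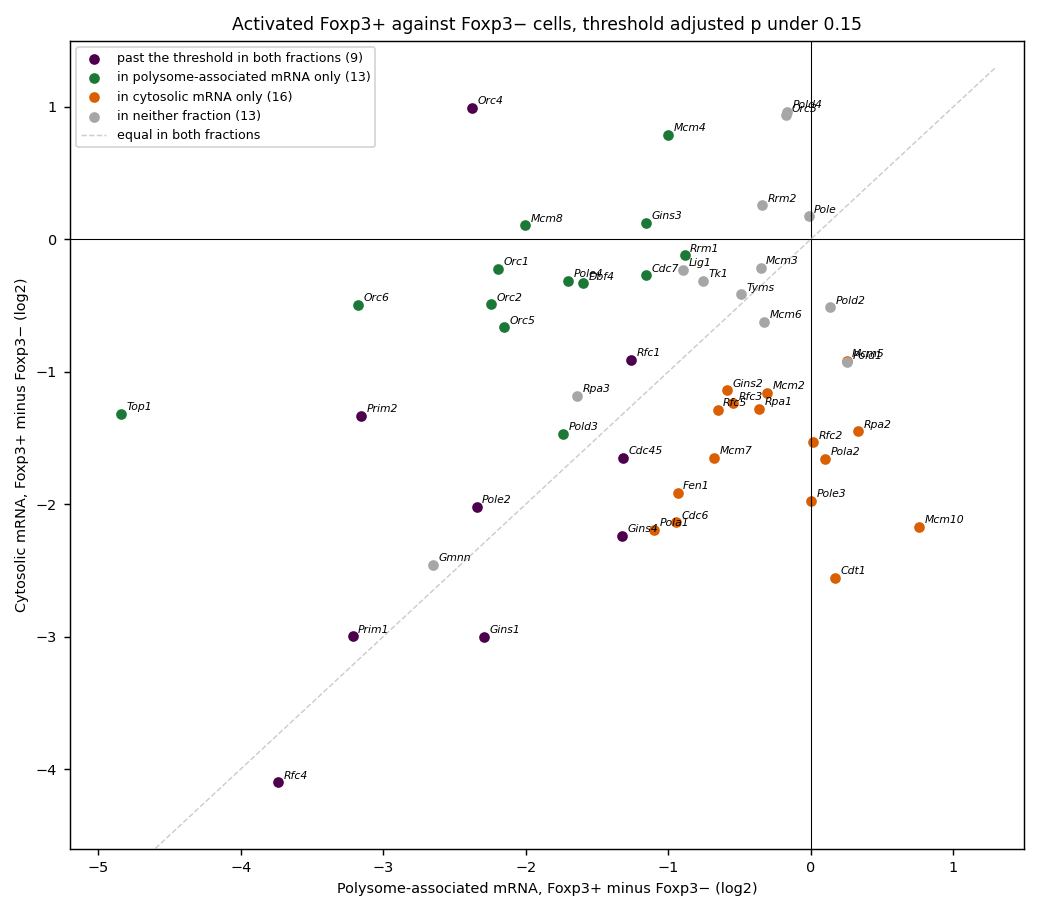
TFoxp3+ minus TFoxp3− difference of each member in activated cells, in polysome-associated (horizontal) and cytosolic mRNA (vertical), both on the log2 scale. Colours give the fraction in which a member passed an adjusted p under 0.15. Rfc4 and Prim1 lie far from 0 on both axes, Top1 and the Orc genes lie left of the dashed line of equal differences, and Cdt1 and Mcm10 lie below it.

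These counts changed with the arrays in the fit. A fit of the 8 activated arrays alone called 11 members in polysome-associated mRNA (Mcm8, Orc1, Orc4, Orc6, Pole2, Pole4, Prim1, Prim2, Rfc1, Rfc4 and Top1) and 9 in cytosolic mRNA (Cdt1, Gins4, Mcm7, Mcm10, Pola2, Pole2, Prim1, Rfc2 and Rfc4), all lower in TFoxp3+ cells. In that fit 5.19% of all genes were lower and 3.12% higher in polysome-associated mRNA, and 3.34% lower and 1.53% higher in cytosolic mRNA. Without the first activated TFoxp3− cytosolic array 15 members were called in cytosolic mRNA. The interquartile range of all genes was 2.62 to 2.90 on activated TFoxp3+ and 3.03 to 3.43 on activated TFoxp3− arrays, and after cyclic loess normalization, 20 of the 22 polysome and 17 of the 25 cytosolic calls were kept, while the median cytosolic difference of the members was -0.73. The mean of 5 stromal and endothelial markers was 4.52 to 5.19 on activated TFoxp3+ and 3.66 to 4.37 on activated TFoxp3− arrays. In polysome-associated mRNA the mean of 5 B cell markers was 4.41 to 4.57 in TFoxp3+ and 3.71 to 3.84 in TFoxp3− cells, that of 5 myeloid markers 4.59 to 4.62 and 3.63 to 4.23, and that of 3 NK markers 3.60 to 3.76 and 3.30 to 3.42. In TFoxp3+ polysomes Cd79b was higher by 2.30 (SE 0.65, adjusted p = 0.0366) and Blk by 0.79 (SE 0.27, adjusted p = 0.0681) among the B cell markers, and Lyz2, a myeloid marker, by 1.93 (SE 0.74, adjusted p = 0.0983) and Klrb1c, an NK marker, by 0.92 (SE 0.21, adjusted p = 0.0162). In cytosolic mRNA the B cell means were 4.47 to 4.79 and 4.21 to 4.45, the myeloid means 4.18 to 4.73 and 3.78 to 3.99, and the NK means overlapped. The part of these marker lists was not tested.

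At the origin, all 6 Orc differences in polysome-associated mRNA were below 0 and 5 passed (Orc1, Orc2, Orc4, Orc5 and Orc6), while in cytosolic mRNA Orc4 alone passed, in the higher direction. This cytosolic Orc4 call was kept with an intensity-dependent prior. It was lost with array weights, cyclic loess, median centring and a fit of the activated arrays alone. In activated cells Orc6 read 5.19 and 6.19 in TFoxp3+ polysome-associated mRNA, 7.82 and 6.83 in TFoxp3+ cytosolic mRNA, 8.96 and 8.77 in TFoxp3− polysome-associated mRNA and 7.21 and 8.42 in TFoxp3− cytosolic mRNA. Ex vivo the Orc6 values were 5.57 and 4.60 in TFoxp3+ polysome-associated mRNA, 5.40 and 5.18 in TFoxp3+ cytosolic mRNA, 5.09 and 4.94 in TFoxp3− polysome-associated mRNA and 5.35 and 4.88 in TFoxp3− cytosolic mRNA. Orc6 differed by -3.18 (SE 0.49, adjusted p = 0.0026) in polysomes, where the activated subsets did not overlap, and -0.49 (SE 0.49, adjusted p = 0.546) in cytosolic mRNA, where they did. Of the loading genes, Cdc6 and Cdt1 were lower in cytosolic mRNA, with differences of -2.14 (SE 0.54, adjusted p = 0.0293) and -2.56 (SE 0.34, adjusted p = 0.00151), and gave -0.94 (SE 0.54, adjusted p = 0.247) and 0.17 (SE 0.34, adjusted p = 0.754) in polysomes. Of the MCM ring, Mcm4 was lower in polysomes and Mcm2, Mcm5 and Mcm7 in cytosolic mRNA. Cdc7 and Dbf4 were lower in polysomes, with differences of -1.16 (SE 0.28, adjusted p = 0.0202) and -1.60 (SE 0.64, adjusted p = 0.111), and gave -0.27 and -0.33 in cytosolic mRNA.

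Among the genes that complete the helicase, Gins1 was lower in both fractions with a difference of -2.29 (SE 0.73, adjusted p = 0.0557) in polysome-associated and -3.0 (SE 0.73, adjusted p = 0.025) in cytosolic mRNA. In activated cells Gins4 read 7.43 and 8.64 in TFoxp3+ polysome-associated mRNA, 7.35 and 7.10 in TFoxp3+ cytosolic mRNA, 9.14 and 9.57 in TFoxp3− polysome-associated mRNA and 9.51 and 9.41 in TFoxp3− cytosolic mRNA. Ex vivo the Gins4 values were 4.94 and 4.31 in TFoxp3+ polysome-associated mRNA, 7.38 and 6.48 in TFoxp3+ cytosolic mRNA, 7.67 and 6.85 in TFoxp3− polysome-associated mRNA and 8.35 and 7.83 in TFoxp3− cytosolic mRNA. Gins4 did not overlap between the activated subsets in cytosolic mRNA, where it gave -2.24 (SE 0.45, adjusted p = 0.0113), nor in polysomes, where it gave -1.32 (SE 0.45, adjusted p = 0.0697). Ex vivo Gins4 was also lower in TFoxp3+ polysomes, with a difference of -2.63 (SE 0.45, adjusted p = 0.0179).

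Primer synthesis and clamp loading genes were lower in TFoxp3+ cells in both fractions or in cytosolic mRNA alone. In activated cells Prim1 read 5.16 and 5.04 in TFoxp3+ polysome-associated mRNA, 5.78 and 4.48 in TFoxp3+ cytosolic mRNA, 8.08 and 8.56 in TFoxp3− polysome-associated mRNA and 8.04 and 8.21 in TFoxp3− cytosolic mRNA. Ex vivo the Prim1 values were 3.47 and 3.68 in TFoxp3+ polysome-associated mRNA, 3.65 and 4.04 in TFoxp3+ cytosolic mRNA, 4.38 and 3.96 in TFoxp3− polysome-associated mRNA and 4.98 and 4.41 in TFoxp3− cytosolic mRNA. Prim1, the catalytic subunit of primase, was lower in TFoxp3+ cells with a difference of -3.21 (SE 0.38, adjusted p = 0.000698) in polysomes and -3.0 (SE 0.38, adjusted p = 0.00127) in cytosolic mRNA, 9.28-fold and 7.99-fold, with no overlap. Prim2, its large subunit, was lower with a difference of -3.16 (SE 0.55, adjusted p = 0.00486) in polysomes and -1.33 (SE 0.55, adjusted p = 0.14) in cytosolic mRNA. Rfc4, with the array values given above, was lower with differences of -3.74 (SE 0.43, adjusted p = 0.00054) and -4.10 (SE 0.43, adjusted p = 0.000565), which is 13.3-fold in polysomes and 17.1-fold in cytosolic mRNA. All 5 Rfc genes were lower in cytosolic mRNA, and Rfc1 and Rfc4 in polysomes. In activated cells Pole2 read 6.02 and 5.74 in TFoxp3+ polysome-associated mRNA, 5.46 and 4.68 in TFoxp3+ cytosolic mRNA, 8.01 and 8.44 in TFoxp3− polysome-associated mRNA and 6.62 and 7.56 in TFoxp3− cytosolic mRNA. Ex vivo the Pole2 values were 5.36 and 5.78 in TFoxp3+ polysome-associated mRNA, 5.21 and 5.55 in TFoxp3+ cytosolic mRNA, 7.14 and 6.83 in TFoxp3− polysome-associated mRNA and 6.88 and 6.63 in TFoxp3− cytosolic mRNA. Pole2, an accessory subunit of polymerase epsilon, was lower in TFoxp3+ cells in both fractions, with differences of -2.34 (SE 0.36, adjusted p = 0.00235) and -2.02 (SE 0.36, adjusted p = 0.00595) in activated cells, and ex vivo with differences of -1.42 (SE 0.36, adjusted p = 0.0888) and -1.37 (SE 0.36, adjusted p = 0.091).

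Of the 51 members, Top1 had the widest gap between activated subsets in polysome-associated mRNA, and Rfc4 in cytosolic mRNA. In activated cells Top1 read 4.10 and 2.90 in TFoxp3+ polysome-associated mRNA, 5.93 and 3.75 in TFoxp3+ cytosolic mRNA, 8.51 and 8.16 in TFoxp3− polysome-associated mRNA and 5.91 and 6.40 in TFoxp3− cytosolic mRNA. Ex vivo the Top1 values were 5.04 and 4.80 in TFoxp3+ polysome-associated mRNA, 5.13 and 4.61 in TFoxp3+ cytosolic mRNA, 6.29 and 6.02 in TFoxp3− polysome-associated mRNA and 6.57 and 5.52 in TFoxp3− cytosolic mRNA. Its activated TFoxp3+ polysome values were below all 4 activated TFoxp3− values, and the difference was -4.84 (SE 0.63, adjusted p = 0.00102) in polysomes and -1.32 (SE 0.63, adjusted p = 0.195) in cytosolic mRNA. Both of these TFoxp3+ polysome values also lay below the median of their arrays (5.01 and 4.94). The single-strand binding genes Rpa1 and Rpa2 were lower in cytosolic mRNA, with differences of -1.28 (SE 0.32, adjusted p = 0.0281) and -1.45 (SE 0.33, adjusted p = 0.0198), and gave -0.36 and 0.34 in polysomes. Of the fragment-joining genes, Fen1 was lower in cytosolic mRNA, with a difference of -1.91 (SE 0.61, adjusted p = 0.0648), and Lig1 passed in neither fraction.

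Between ex vivo subsets few members passed in the fit over all 16 arrays, and more in a fit of the ex vivo arrays alone. In polysome-associated mRNA 3 were lower in TFoxp3+ cells (Gins4, Pole2 and Pole4) and 0 higher, against 2.25% and 1.62% of all genes, and in cytosolic mRNA 1 was lower (Pole2) and none higher, against 2.58% and 2.06%. Gins4 and Pole4 had adjusted p-values under 0.05 (0.0179 and 0.0407) and Pole2 did not (0.0888 in polysome-associated and 0.091 in cytosolic mRNA). The 8 ex vivo arrays fitted alone called 16 members in polysome-associated mRNA, 11 lower (21.6%) and 5 higher (9.8%) in TFoxp3+ cells, against 14.9% and 13.7% of all genes in that fit. In cytosolic mRNA they called 17, 9 lower (17.6%) and 8 higher (15.7%), against 14.5% and 14% of all genes. Without any 1 of the 4 ex vivo cytosolic arrays the cytosolic count was 0, and without any 1 of the 4 activated TFoxp3+ arrays it was 3 to 4. The polysome count was 0 without the first TFoxp3− and 1 without the second TFoxp3+ polysome array, and 6 without any 1 of the activated TFoxp3+ arrays. The 3′ minus 5′ actin difference was 4.16 to 4.64 in ex vivo TFoxp3+ and 0.82 to 1.38 in ex vivo TFoxp3− cells, and the B cell marker mean was 4.96 to 5.22 and 5.32 to 5.75, and their part was not tested. The difference between subsets was itself compared between the states. In cytosolic mRNA it was lower in activated than in ex vivo cells for 3 members (Cdt1, Mcm10 and Rfc4) and higher for 0, against 1.21% and 0.856% of all genes (adjusted p under 0.05). In polysome-associated mRNA it was lower for 4 (Orc1, Orc6, Prim1 and Rfc4) and higher for 0, against 1.43% and 1.15%. Rfc4 gave -3.70 (SE 0.60, adjusted p = 0.0123) in polysomes and -4.72 (SE 0.60, adjusted p = 0.0051) in cytosolic mRNA. The cytosolic count was 1 without any 1 of the 4 ex vivo cytosolic arrays and 6 to 7 without any 1 of the activated TFoxp3+ arrays. The polysome count was 0 to 2 without any 1 of the 8 ex vivo arrays, 2 without the first activated TFoxp3− polysome array and 8 without either activated TFoxp3+ cytosolic array.

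Of the 57 regulators and accessory factors, 24 (42.1%) were lower and 4 (7.02%) higher in activated TFoxp3+ than TFoxp3− polysome-associated mRNA, against 13.7% and 18.7% of all genes. In cytosolic mRNA 20 (35.1%) were lower and 2 (3.51%) higher, against 12.2% and 13.8%. Cdkn1b, which encodes the cyclin-dependent kinase inhibitor p27, was higher in activated TFoxp3+ cytosolic mRNA by 4.74 (SE 0.51, adjusted p = 0.000664). Skp2, whose product marks p27 for degradation, was lower in TFoxp3+ polysomes with a difference of -2.65 (SE 0.25, adjusted p = 0.000235). For Skp2 the change between the states was -2.39 (SE 0.35, limma, adjusted p = 0.00826). Cdc25a, a phosphatase that activates cyclin-dependent kinases, was lower in cytosolic mRNA with a difference of -2.0 (SE 0.30, adjusted p = 0.00292), and Rif1, known for replication timing, had a lower polysome level (-2.88, adjusted p = 0.000188).

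Polysome-associated was then set against cytosolic mRNA within each group, which asks how far each mRNA is loaded with ribosomes relative to other genes. In activated TFoxp3+ cells 5 members were higher in polysomes (Cdt1, Mcm10, Pola2, Rpa1 and Rpa2) and 1 lower (Pole4), 9.8% and 1.96%, against 2.31% and 2.36% of all genes (limma, adjusted p under 0.05). In activated TFoxp3− cells 3 were higher (Orc1, Orc4 and Mcm8) and 0 lower, 5.88% and 0%, against 2.36% and 1.52%. The 8 activated arrays fitted alone called 0 members in either subset. Without the first cytosolic or first polysome array of its own group the activated TFoxp3+ count was 12 and 11 and the activated TFoxp3− count 0 and 0, and without either ex vivo TFoxp3− cytosolic array the TFoxp3− count was 1. Ex vivo limma called 0 members in TFoxp3+ and 0 in TFoxp3− cells, against 0.0364% and 0.0607% of all genes called in either direction. The fraction difference changed between activated and ex vivo cells for 0 members in TFoxp3+ and 0 in TFoxp3− cells (limma, adjusted p under 0.05). Of all genes it changed for 0.279% and 0.158%. At an unadjusted p under 0.05 limma had 3 and 1 members for the ex vivo fractions and 11 and 8 for this change. No share of all genes at that unadjusted threshold is given, so these counts alone are not a result about the members.

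Differential translation, the polysome minus cytosolic difference of TFoxp3+ cells less that of TFoxp3− cells, passed in activated cells for 6 members in the higher direction (Cdt1, Mcm5, Mcm10, Pola2, Rfc2 and Rpa2) and 7 in the lower (Orc1, Orc4, Orc6, Mcm4, Mcm8, Pole4 and Top1) at an adjusted p under 0.15. That is 11.8% and 13.7% of the members, against 3.83% and 3.65% of all genes. Ex vivo 0 members passed an adjusted p under 0.3 in limma and 0 in an analysis of covariance, against 0% and 0.388% of all genes. In limma 3 members had an unadjusted p under 0.05, a count given without its share of all genes. In activated cells a fit of the 8 activated arrays alone called 0 of the 13 and 0% of all genes (1373 genes at an unadjusted p under 0.05), and limma with array weights kept Cdt1 and Orc4. The analysis of covariance of polysome-associated on cytosolic mRNA, with consecutive arrays taken as pairs that the labels do not state, called 0 members higher and 16 lower (31.4%), against 9.16% and 8.98% of all genes. Of these 16, 6 were also lower in limma (Orc1, Orc4, Orc6, Mcm8, Pole4 and Top1), and 10 were not called there (Cdc7, Fen1, Gins3, Gmnn, Orc2, Orc5, Prim1, Prim2, Rfc3 and Rrm1). It called none of the 6 that were higher in limma. Cdt1 turned to -1.27 and was not called (adjusted p = 0.35), against 2.73 in limma. Fen1 was at -2.15 (adjusted p = 0.035), against 0.98 in limma (adjusted p = 0.626). The slope of polysome-associated on cytosolic mRNA was -4.42 to 0.47 among the 16. Of these, 10 lay within the limits of -0.5 and 1.5 that the methods set for anota. The slopes of Cdt1 (-0.564) and Fen1 (-0.633) lay below these limits. Without the first activated TFoxp3− cytosolic array 8 members were called.

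Of the members lower in this comparison, 3 encode origin recognition proteins. In activated cells Orc1 read 6.02 and 5.95 in TFoxp3+ polysome-associated mRNA, 6.20 and 6.81 in TFoxp3+ cytosolic mRNA, 8.74 and 7.62 in TFoxp3− polysome-associated mRNA and 6.57 and 6.88 in TFoxp3− cytosolic mRNA. Ex vivo the Orc1 values were 5.11 and 5.22 in TFoxp3+ polysome-associated mRNA, 5.63 and 5.16 in TFoxp3+ cytosolic mRNA, 5.25 and 4.94 in TFoxp3− polysome-associated mRNA and 4.93 and 5.22 in TFoxp3− cytosolic mRNA. In activated TFoxp3− cells both polysome Orc1 arrays were above both cytosolic ones, and in activated TFoxp3+ cells both were below, with fraction differences of -0.52 (SE 0.35, adjusted p = 0.452) in TFoxp3+ and 1.46 (SE 0.35, adjusted p = 0.0464) in TFoxp3− cells and a differential translation of -1.98 (SE 0.50, adjusted p = 0.0681). In activated cells Orc4 read 3.73 and 4.11 in TFoxp3+ polysome-associated mRNA, 4.97 and 5.78 in TFoxp3+ cytosolic mRNA, 6.88 and 5.71 in TFoxp3− polysome-associated mRNA and 4.0 and 4.77 in TFoxp3− cytosolic mRNA. Ex vivo the Orc4 values were 4.06 and 3.81 in TFoxp3+ polysome-associated mRNA, 3.80 and 3.97 in TFoxp3+ cytosolic mRNA, 4.39 and 4.06 in TFoxp3− polysome-associated mRNA and 3.97 and 4.05 in TFoxp3− cytosolic mRNA. Orc4 had the same arrangement of arrays, with fraction differences of -1.45 (SE 0.40, adjusted p = 0.0672) and 1.91 (SE 0.40, adjusted p = 0.0269) in TFoxp3+ and TFoxp3− cells and a differential translation of -3.37 (SE 0.57, adjusted p = 0.0177). Both of its TFoxp3+ polysome values and both of its TFoxp3− cytosolic values lay below the median of their arrays. In activated TFoxp3− cells both polysome arrays lay above both cytosolic arrays for 16 members and 17.2% of all genes. In activated TFoxp3+ cells both lay below for 6 members and 21.6%. Orc1 and Orc4 were picked by a difference that uses these same arrays, so their arrangement is not added support. Orc6 gave -2.68 (SE 0.70, adjusted p = 0.0754) and Mcm8 -2.11 (SE 0.54, adjusted p = 0.0746). For Top1 the fraction differences were -1.34 in TFoxp3+ and 2.18 in TFoxp3− cells, and the differential translation was -3.52 (SE 0.89, adjusted p = 0.0694).

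**Figure D4:**
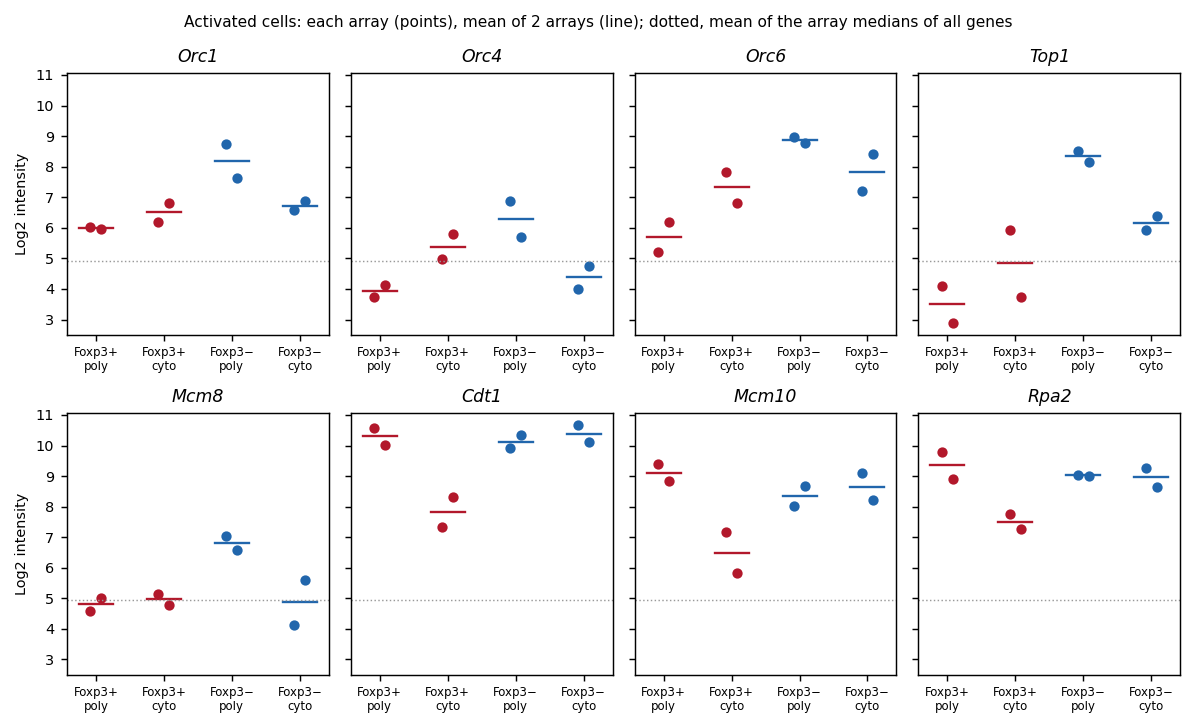
Log2 intensity of 8 members on the 8 activated arrays, polysome-associated (poly) left of cytosolic (cyto) mRNA for TFoxp3+ (red) and TFoxp3− cells (blue), with points for arrays and lines for the mean of 2. The dotted line is the mean of the array medians. For Orc1, Orc4, Orc6, Mcm8 and Top1 the TFoxp3− polysome mean is the highest of the 4, and for Cdt1, Mcm10 and Rpa2 the TFoxp3+ cytosolic mean is the lowest.

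All 6 members higher in this comparison had both polysome arrays above both cytosolic arrays in activated TFoxp3+ cells. The same held there for 18 members in all and for 16.6% of all genes, and the reverse for 6 members and 21.6%. The members higher in this comparison were picked by a difference that uses these same arrays, so their separation is not added support. For Cdt1, with the array values given above, polysomes exceeded cytosolic mRNA by 2.47 (SE 0.34, adjusted p = 0.00423) in TFoxp3+ cells, the TFoxp3− difference was -0.26 (SE 0.34, adjusted p = 0.753), and the differential translation was 2.73 (SE 0.48, adjusted p = 0.0208). In activated cells Mcm10 read 9.39 and 8.84 in TFoxp3+ polysome-associated mRNA, 7.16 and 5.81 in TFoxp3+ cytosolic mRNA, 8.03 and 8.67 in TFoxp3− polysome-associated mRNA and 9.11 and 8.20 in TFoxp3− cytosolic mRNA. Ex vivo the Mcm10 values were 6.06 and 5.59 in TFoxp3+ polysome-associated mRNA, 5.63 and 6.14 in TFoxp3+ cytosolic mRNA, 5.33 and 4.96 in TFoxp3− polysome-associated mRNA and 4.41 and 5.01 in TFoxp3− cytosolic mRNA. Mcm10 did not overlap between the fractions in activated TFoxp3+ cells and overlapped in TFoxp3− cells, and its fraction differences were 2.62 (SE 0.47, adjusted p = 0.0123) and -0.31 (SE 0.47, adjusted p = 0.796) in these subsets. In activated cells Rpa2 read 9.80 and 8.91 in TFoxp3+ polysome-associated mRNA, 7.77 and 7.25 in TFoxp3+ cytosolic mRNA, 9.04 and 9.0 in TFoxp3− polysome-associated mRNA and 9.26 and 8.66 in TFoxp3− cytosolic mRNA. Ex vivo the Rpa2 values were 7.71 and 7.22 in TFoxp3+ polysome-associated mRNA, 7.92 and 7.50 in TFoxp3+ cytosolic mRNA, 7.97 and 7.98 in TFoxp3− polysome-associated mRNA and 8.13 and 8.07 in TFoxp3− cytosolic mRNA. Rpa2 gave 1.84 (SE 0.33, adjusted p = 0.0122) and 0.06 (SE 0.33, adjusted p = 0.953), with separate fractions in activated TFoxp3+ cells and overlapping ones in TFoxp3− cells. Pola2 and Rfc2 had differential translation of 1.76 (SE 0.47, adjusted p = 0.0818) and 1.55 (SE 0.36, adjusted p = 0.0546), and Mcm5 of 1.17 (SE 0.35, adjusted p = 0.115).

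Pole4, a small histone-fold subunit of polymerase epsilon, was the 1 member called lower in polysomes than in cytosolic mRNA of activated TFoxp3+ cells. In activated cells Pole4 read 5.35 and 6.26 in TFoxp3+ polysome-associated mRNA, 7.52 and 7.42 in TFoxp3+ cytosolic mRNA, 7.43 and 7.57 in TFoxp3− polysome-associated mRNA and 7.81 and 7.76 in TFoxp3− cytosolic mRNA. Ex vivo the Pole4 values were 6.5 and 6.18 in TFoxp3+ polysome-associated mRNA, 7.28 and 7.43 in TFoxp3+ cytosolic mRNA, 8.05 and 7.48 in TFoxp3− polysome-associated mRNA and 7.73 and 7.74 in TFoxp3− cytosolic mRNA. The fraction difference of Pole4 was -1.67 (SE 0.29, adjusted p = 0.0106) in activated TFoxp3+ cells and -0.28 (SE 0.29, adjusted p = 0.666) in activated TFoxp3− cells, and the differential translation was -1.39 (SE 0.41, adjusted p = 0.116). Pole4 was also lower in TFoxp3+ than TFoxp3− polysomes, with a difference of -1.70 (SE 0.29, adjusted p = 0.00436) in activated cells and -1.42 (SE 0.29, adjusted p = 0.0407) ex vivo. Of the 57 regulators and accessory factors, 6 (10.5%) were lower and 2 (3.51%) higher in differential translation of activated cells, against 3.65% and 3.83% of all genes. The lower ones included Rif1 at -2.63 (SE 0.36, adjusted p = 0.0107) and Skp2 at -2.11 (SE 0.35, adjusted p = 0.0172).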

How the data were processed

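Cytosolic and polysome-associated mRNA of TFoxp3+ and TFoxp3− CD4+ T cells, activated and ex vivo, was amplified (Ovation Pico WTA) and hybridised to Affymetrix arrays, 2 for each of 8 groups. The deposited values are log2 intensities that the authors made by RMA (background correction, quantile normalization and median polish) with probe sets redefined for Entrez genes. Values normalized in this way give a level relative to the other genes of its array, not an amount per cell. No source used here says whether RMA was run once over all 16 arrays. The number of arrays limits the precision, with a residual SD of 0.349 for the median gene.

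Of 16539 probe sets, 64 control probe sets were left out and 16475 genes were tested, 15780 of them with a symbol in the platform annotation. All 16 arrays were fitted with 1 mean per group (limma 3.58.1 in R 4.3.3, lmFit and eBayes, two-sided), and p-values were adjusted by Benjamini-Hochberg over all genes. In activated cells the threshold of 0.15 between subsets and for differential translation follows the study's methods, as does 0.3 for differential translation ex vivo. The same 0.15 was applied here between ex vivo subsets, and 0.05 elsewhere. The study corrected for cytosolic mRNA with anota, which was not run here, so the interaction contrast was used, with an analysis of covariance as an alternative. P-values rest on 1 estimate of the spread per gene, pooled over all 16 arrays, which were described as biological duplicates. The median SD over all genes between the 2 arrays of a group was 0.119 to 0.161 ex vivo and 0.240 to 0.330 in activated cells. A p-value for 1 state therefore also draws on the spread of the other. The scripts were tested on simulated data.

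Array values are given for the 6 members with the smallest p in each family of comparisons (activation, subset, fraction, differential translation), members called against the direction of most, and the member with the highest mean in each functional group. Regulators are named from the 4 with the smallest adjusted p in a comparison. Members and lists were chosen with earlier results of these data known. Alternatives were other sets of arrays, cyclic loess, median centring, array weights, an intensity-dependent prior, a restriction to genes above the median mean and leaving out each array. Promoter sequences and positions are from RefSeq (GRCm38.p6).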

Additional observations from a re-analysis of the deposited data

Results flagged for a closer look

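For 6 members the difference between subsets itself differed between the states, by limma's test of that difference over all 16 arrays. In cytosolic mRNA the TFoxp3+ minus TFoxp3− difference was lower in activated than in ex vivo cells for Rfc4 (-4.72, adjusted p = 0.0051), the clamp loader gene, Mcm10 (-3.34, adjusted p = 0.0316) and Cdt1 (-2.47, adjusted p = 0.0275). In polysome-associated mRNA it was lower for Rfc4 (-3.70, adjusted p = 0.0123), Orc6 (-3.24, adjusted p = 0.0363), Prim1 (-2.62, adjusted p = 0.0318) and Orc1 (-2.265, adjusted p = 0.0397). Rfc4 was the 1 member named in both fractions, with a subset difference of -4.10 in activated and 0.62 in ex vivo cytosolic mRNA. A fit of only the groups compared kept Rfc4 in cytosolic and Prim1 in polysome-associated mRNA, and no other of these calls. With array weights all these cytosolic calls were kept, and in polysome-associated mRNA those of Rfc4 and Orc6. Mcm10 had -2.17 and 1.17 in the same comparison, and Orc6 had -3.18 and 0.07 in polysome-associated mRNA. Activated arrays of each subset form a series of their own, so this difference and the array series cannot be told apart.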

How the results depend on the processing

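Counts of members called kept within 1.5 times of the main count in 329 of 408 alternatives, and were lower in 45 and higher in 34. The 188 calls of single members in the main fit were kept in 3717 of 4200 alternatives and lost in 482. The sign turned in 1, for Cdt1 in differential translation of activated cells under the analysis of covariance (-1.27, adjusted p = 0.35). The Cdt1 slope there, -0.564, lay below the limits set for anota. Calls gained by members not called in the main fit are not in this count. In a fit of only the groups compared, called members numbered 11 (polysome) and 4 (cytosolic) between activated subsets, 11 and 20 between ex vivo subsets, 13 for activation in TFoxp3+ cytosolic mRNA, 0 for differential translation and for both activated fraction comparisons, and 1 for the change of the polysome subset difference between states. In the fit of 1 state they numbered 11 and 9 between activated subsets, 16 and 17 between ex vivo subsets, 0 for differential translation and both activated fraction comparisons, and 2 for the fractions of ex vivo TFoxp3+ cells. Of all genes, that fit called 8.31% (polysome) and 4.87% (cytosolic) between activated subsets and 28.6% and 28.5% between ex vivo subsets. With array weights called members numbered 14 between activated subsets in cytosolic mRNA, 16 (polysome) and 17 (cytosolic) between ex vivo subsets, 2 for differential translation, 0 and 1 for the fractions of activated and ex vivo TFoxp3+ cells, 1 and 1 for those of TFoxp3− cells, and 2 (polysome) and 5 (cytosolic) for the change of the subset difference. Cyclic loess called 5 and 2 members between ex vivo subsets, median centring 3 in ex vivo cytosolic mRNA, and genes above the median mean left 1 in the fractions of activated TFoxp3− cells. Of 408 medians, 3 moved by more than 1 SD between replicates: -0.73 between activated subsets in cytosolic mRNA under cyclic loess, -0.95 for differential translation of activated cells under the analysis of covariance, and -0.48 for the change of the polysome subset difference without the first activated TFoxp3+ polysome array. The cause of these changes was not tested. Shares of all genes are given for subset and translation comparisons in the fit of 1 state and for the analysis of covariance. For the other alternatives no such share is given, so their counts alone are not a result about the members.

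Leaving out single arrays gave 15 to 29 members between activated subsets in cytosolic mRNA, 0 to 6 (polysome) and 0 to 4 (cytosolic) between ex vivo subsets, and 13 to 23 for activation in TFoxp3+ cytosolic mRNA. It gave 8 to 19 for differential translation of activated cells, 5 to 12 and 0 to 4 for the fractions of activated TFoxp3+ and TFoxp3− cells, 0 to 8 (polysome) and 1 to 7 (cytosolic) for the change of the subset difference, and 0 to 2 and 0 to 1 for the change of the fraction difference in TFoxp3+ and TFoxp3− cells. The fraction count of activated TFoxp3− cells was 0 without the first cytosolic or the first polysome array of that group, and that of activated TFoxp3+ cells was 12 and 11 without its first cytosolic or first polysome array. No paired analysis was possible because the labels pair no arrays between the groups compared, beyond the analysis of covariance, whose pairs of consecutive arrays were assumed, and which called 0 members higher and 16 lower for differential translation of activated cells. With 2 arrays a group, small differences were not detectable.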
